A study of Saccharomyces cerevisiae with 12 samples.

Results

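The Ras and protein kinase A genes described here are GPR1, GPA2, RAS1, RAS2, CYR1, TPK2, TPK3, BCY1 and PDE1 of Saccharomyces cerevisiae, budding yeast. They were taken by the gene symbol listed for each probe set, and each of the 9 has 1 probe set, out of 5449 genes with a probe set. Total RNA was read on 12 one-colour Affymetrix arrays, 3 each for yeast grown at 0.25%, 0.5%, 1% and 2% glucose. The sample titles also carry the word log, without saying what it stands for. Strain, genotype, time of sampling and any agent beside glucose are not stated in the labels. The deposited value is a linear-scale signal for each probe set, already scaled between arrays by the authors. A change in total RNA per cell therefore cannot be seen, and fewer cells and less RNA per cell cannot be told apart. The labels and the series design call the 3 arrays of a level biological replicates, without naming separate cultures, so p-values measure the spread between these samples.

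Budding yeast couples glucose to growth through cyclic AMP. Glucose outside the cell is sensed by a receptor of the G protein-coupled kind, and sugar uptake and phosphorylation also activate the Ras proteins. Both routes converge on adenylate cyclase, whose cyclic AMP releases the catalytic subunits of protein kinase A from their inhibitory subunit, and phosphodiesterases break the cyclic AMP down again. Active kinase A favours growth and holds down stress and reserve carbohydrate genes, partly by keeping the transcription factors Msn2 and Msn4 out of the nucleus. Much of this control acts on the proteins, which the arrays do not measure. The question the samples allow is whether the transcripts of the pathway's own components differ between glucose levels.

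The arrays at 2% glucose differed from the others in control signals, and the part of this in the comparisons against 2% was not tested. Over 7 control genes, the mean 3' to 5' log2 ratio was 0.88 ± 0.04 at 0.25%, 0.91 ± 0.03 at 0.5%, 0.88 ± 0.06 at 1% and 1.28 ± 0.12 at 2% (SD, n = 3 each). Ribosomal RNA signal over 17 probe sets was 8.90 ± 0.70, 9.08 ± 0.63 and 8.92 ± 0.70 at those lower levels and 7.77 ± 0.94 at 2%, on the log2 scale. The 5 genes specific to mating type a summed to signals between 6941 and 8549 over the 12 arrays, the 4 alpha-specific genes to between 99.1 and 141, and 4 stationary phase markers, all too dim to be tested, to between 112 and 158.

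The 9 transcripts showed no difference between glucose levels that passed a test. With limma and Benjamini-Hochberg adjusted p under 0.05 over 4086 tested genes, 0 of 9 passed at 0.25% against 2% glucose, a comparison in which 4.04% of all tested genes passed. At 0.5% against 2% it was 0 of 9 against 1.22% of all genes, and at 1% against 2% it was 0 of 9 against 0.245%. An F-test for any difference among the 4 levels called 0 of 9 (2.15% of all genes), and a slope on the log2 glucose level called 0 of 9 (4.8% of all genes). At an unadjusted p under 0.05 the count was also 0 of 9 in each of these tests, which had no replicate block. That value was reached by 15.8%, 14.1% and 6.9% of all tested genes at 0.25%, 0.5% and 1% against 2%, by 10.6% in the F-test and by 16.9% in the slope test.

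The intervals say more than the calls, because they give the range of changes that goes with the spread between arrays. They do not cover the difference of the 2% arrays in control signals, whose part in these changes was not tested. At 0.25% against 2% glucose the changes ran from -0.10 (TPK3) to 0.17 (TPK2) on the log2 scale. The 95% intervals of the 9 ratios lay between 0.784-fold and 1.38-fold. For 0.5% against 2% they lay between 0.708-fold and 1.40-fold, and for 1% against 2% between 0.775-fold and 1.27-fold. Each interval is for a single gene and is not widened for the number of genes. A doubling or halving therefore lay outside the interval of every member in these comparisons, while smaller changes lay inside some of them. The median absolute change of the 9 at 0.25% against 2% was 0.106, beside 0.108 over all tested genes.

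**Figure D1:**
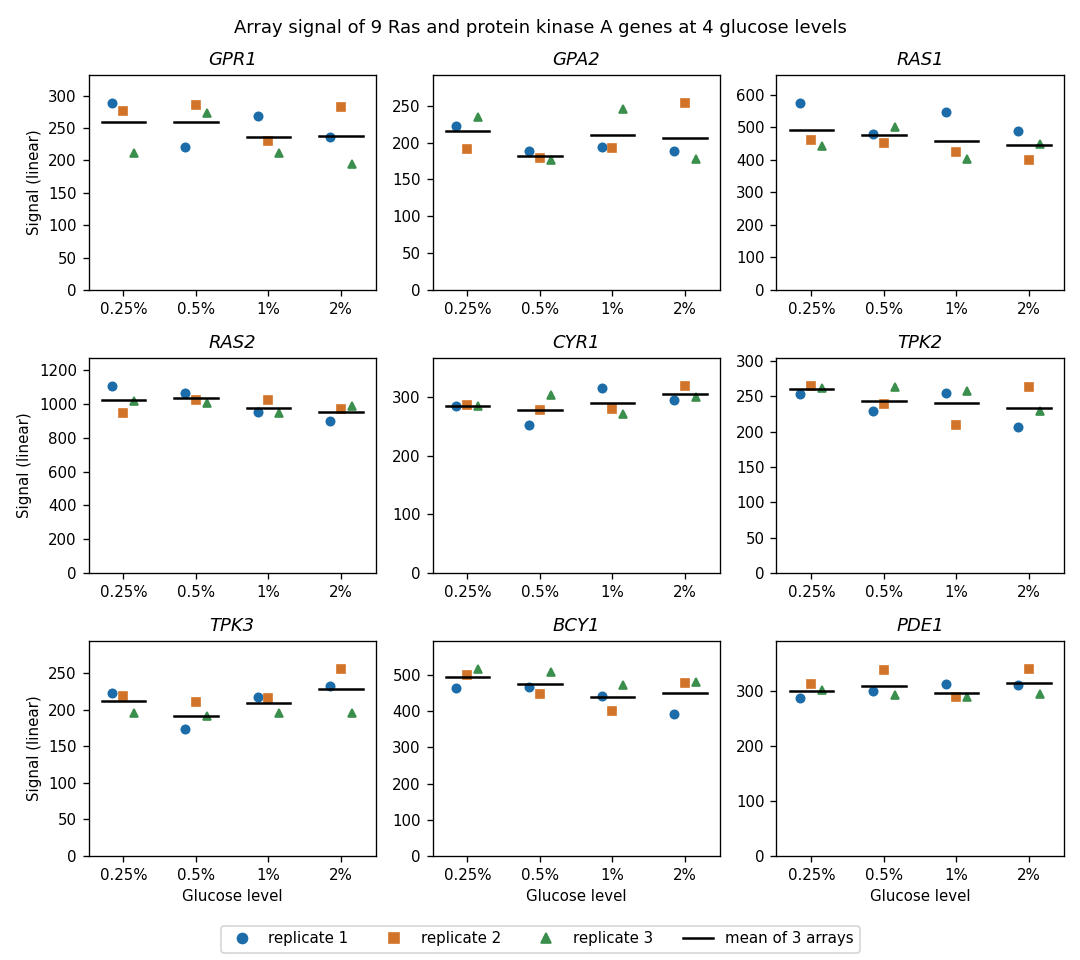
Signal on a linear scale starting at 0 (vertical) for each of the 9 genes at 0.25%, 0.5%, 1% and 2% glucose (horizontal). Points are single arrays, with shape and colour for the replicate number, and bars are means of 3 arrays; the means of the levels lie close together beside the spread of the points, as for RAS2 between 951 and 1033.

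The glucose receptor is encoded by GPR1 (locus YDL035C) and the G protein alpha subunit it acts on by GPA2 (YER020W). GPR1 had signals of 289, 276 and 212 at 0.25% glucose, 221, 286 and 273 at 0.5%, 269, 230 and 211 at 1%, and 237, 282 and 194 at 2%. The 3 arrays of every level overlapped those of every other, and the change at 0.25% against 2% was 0.13 (SE 0.16, limma adjusted p = 0.78). GPA2 had signals of 222, 192 and 235 at 0.25%, 189, 179 and 177 at 0.5%, 194, 193 and 246 at 1%, and 188, 254 and 178 at 2%. Its lowest level mean was at 0.5% glucose, 181 ± 6.29 (SD, n = 3), and the 3 arrays there lay below all 3 at 0.25% and all 3 at 1%. Neither step passed: the change was -0.21 at 0.5% against 1% and 0.25 at 0.25% against 0.5% (SE 0.14, unadjusted p = 0.16 and 0.10, limma adjusted p = 1 for both). Among all tested genes 0.0979% passed the step from 1% down to 0.5% and 0.122% the step from 0.5% down to 0.25%, and groups that did not overlap were found for 8% and 10.4% of them. Against 2% glucose GPA2 changed by 0.08 at 0.25% (adjusted p = 0.85).

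RAS1 (YOR101W) and RAS2 (YNL098C) encode the small GTPases that stimulate adenylate cyclase, RAS2 being the gene whose activated form is best known for lowering stress resistance. RAS1 had signals of 575, 461 and 441 at 0.25% glucose, 478, 452 and 502 at 0.5%, 546, 425 and 402 at 1%, and 490, 400 and 447 at 2%. The level mean was 492 ± 72.0 at 0.25%, 477 ± 24.6 at 0.5%, 458 ± 76.9 at 1% and 446 ± 44.6 at 2% (SD, n = 3 each), an order with steps smaller than the SD within a level. The change at 0.25% against 2% was 0.14 (SE 0.13, limma adjusted p = 0.68). RAS2 had signals of 1107, 949 and 1019 at 0.25%, 1067, 1025 and 1006 at 0.5%, 952, 1023 and 944 at 1%, and 898, 968 and 987 at 2%. The 3 arrays at 0.5% lay above the 3 at 2%, the single member in that comparison with no overlap, where 21.5% of all tested genes had none. RAS2 differed there by 0.12 (SE 0.08, adjusted p = 0.48) and at 0.25% against 2% by 0.11 (adjusted p = 0.55). It had the narrowest interval of the 9 at 0.25% against 2%, 0.962-fold to 1.20-fold.

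CYR1 (YJL005W) encodes adenylate cyclase, which makes cyclic AMP. Its signals were 285, 286 and 285 at 0.25% glucose, 252, 278 and 303 at 0.5%, 316, 280 and 271 at 1%, and 294, 319 and 300 at 2%. The 3 arrays at 0.25% lay together and just below the 3 at 2%. CYR1 was the single member without overlap in that comparison, where 19.7% of all tested genes had none. The difference was -0.09 (SE 0.10, limma adjusted p = 0.72), and the 95% interval ran from 0.811-fold to 1.08-fold.

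TPK2 (YPL203W) and TPK3 (YKL166C) encode catalytic subunits of protein kinase A, and BCY1 (YIL033C) its regulatory subunit, which binds cyclic AMP and otherwise keeps the kinase inactive. TPK2 had signals of 253, 265 and 262 at 0.25% glucose, 229, 239 and 263 at 0.5%, 255, 210 and 257 at 1%, and 207, 263 and 229 at 2%. Its change at 0.25% against 2% was 0.17 (SE 0.11, limma adjusted p = 0.53), with an overlap through replicate 2 at 2%. Without replicate 1 at 2%, its lowest array there, the change was 0.08. TPK3 had signals of 223, 219 and 195 at 0.25%, 174, 210 and 192 at 0.5%, 217, 216 and 196 at 1%, and 232, 256 and 196 at 2%. At 0.5% against 2% TPK3 had the lowest p of any member against 2% glucose, a change of -0.25 (SE 0.12, unadjusted p = 0.055, limma adjusted p = 0.37), and its array of replicate 3 at 2% lay within the range at 0.5%. BCY1 had signals of 464, 501 and 517 at 0.25%, 467, 448 and 508 at 0.5%, 442, 401 and 472 at 1%, and 392, 479 and 480 at 2%. It averaged 494 ± 27.3 at 0.25% and 450 ± 50.7 at 2% (SD, n = 3 each), a change of 0.14 (SE 0.10, adjusted p = 0.56) that came with overlapping arrays.

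PDE1 (YGL248W) encodes the low-affinity cyclic AMP phosphodiesterase, a protein that kinase A phosphorylates. Its signals were 287, 314 and 302 at 0.25% glucose, 300, 338 and 293 at 0.5%, 313, 289 and 289 at 1%, and 312, 341 and 295 at 2%. The highest level mean was 1.06 times the lowest, the smallest such ratio of the 9 genes, and the change at 0.25% against 2% was -0.07 (SE 0.09, limma adjusted p = 0.79). For the 9 genes this ratio of level means went up to 1.19, for GPA2 and TPK3. In no member did a step between neighbouring levels pass, so the order of the level means is a description only.

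**Figure D2:**
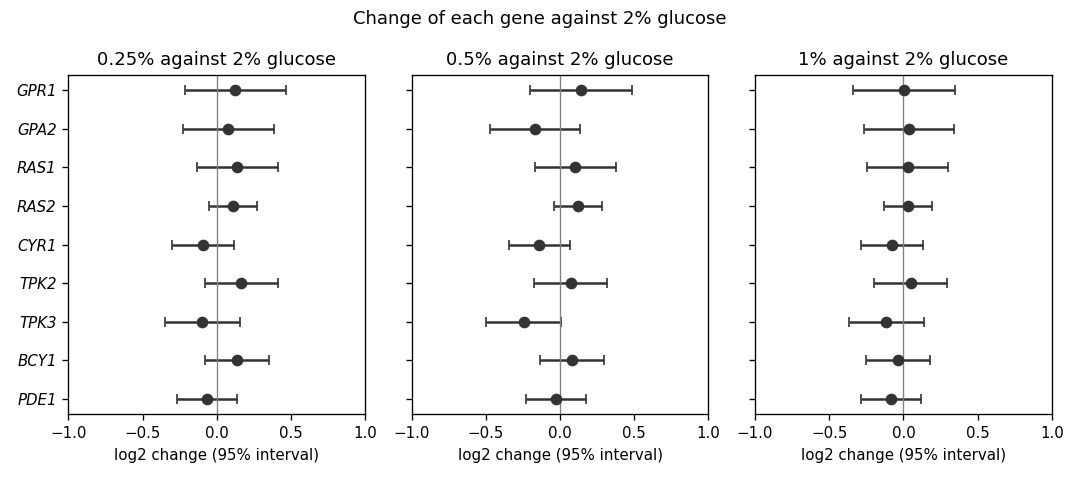
Log2 change of each gene (horizontal) at 0.25%, 0.5% and 1% glucose against 2%, one panel each. Points are limma estimates from 3 arrays a level, without a replicate block, and bars are 95% intervals. Every interval drawn includes 0, the closest being TPK3 at 0.5% with an upper bound of 0.006. With the block, not drawn, that interval ran from -0.458 to -0.034.

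Kinase A activity depends on the balance between components, so the differences between pairs of these genes were followed within each array, where the scaling between arrays cancels. The size of such a difference depends on the probes and is not read here, only its course over the glucose levels. TPK2 minus TPK3 was 0.30 ± 0.12 at 0.25% glucose, 0.35 ± 0.14 at 0.5%, 0.19 ± 0.22 at 1% and 0.03 ± 0.19 at 2% (log2, SD, n = 3 each). Its slope was 0.095 for each halving of glucose (two-sided exact permutation p = 0.054 over 369600 arrangements of the 12 arrays), and after adjustment over the 5 pairs it did not pass (adjusted p = 0.27). BCY1 minus the mean of TPK2 and TPK3, the regulatory against the catalytic subunits, was 1.07 ± 0.12 at 0.25% and 0.97 ± 0.19 at 2% (slope 0.049, exact permutation adjusted p = 0.44). RAS2 minus RAS1 was 1.07 ± 0.13 at 0.25% and 1.10 ± 0.20 at 2% (slope -0.008, exact permutation adjusted p = 0.85). PDE1 minus CYR1 had a slope of 0.020, and GPR1 minus GPA2 a slope of 0.049 (exact permutation adjusted p = 0.65 for both). Thus 0 of 5 pairs showed an unequal change that passed, and 0 of 5 had an unadjusted p under 0.05. With arrays exchanged only within a replicate number (13824 arrangements), TPK2 minus TPK3 alone had an exact permutation p under 0.05, p = 0.018, which did not pass after adjustment over the 5 pairs (adjusted p = 0.088).

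**Figure D3:**
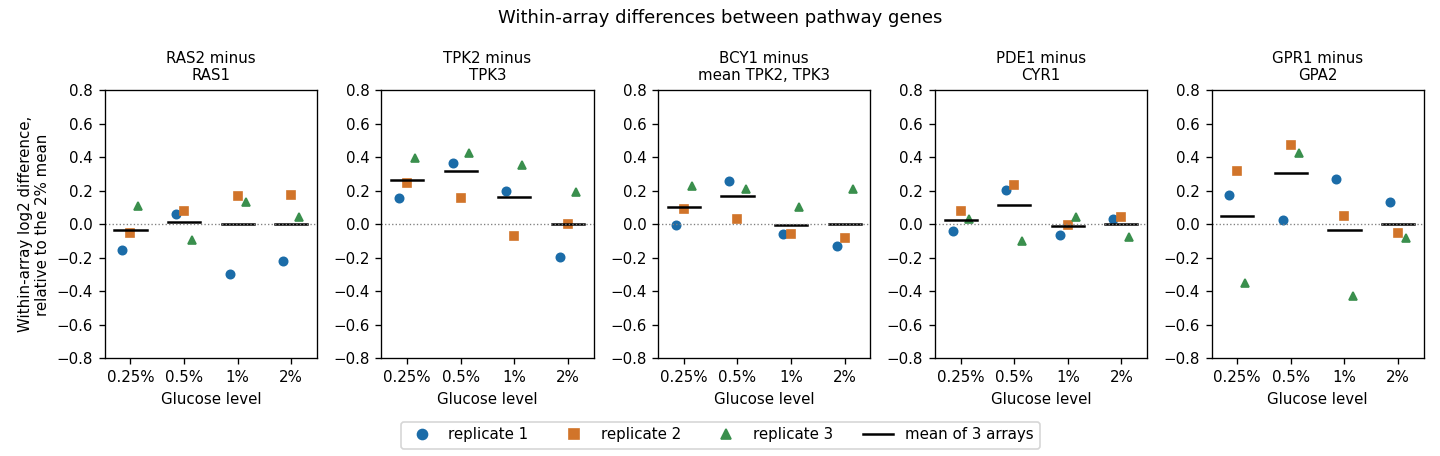
Within-array log2 difference between the genes of each of 5 pairs (vertical, relative to the mean at 2% glucose) at the 4 glucose levels (horizontal). Points are single arrays and bars are means of 3; TPK2 minus TPK3 lies higher at 0.25% and 0.5% than at 2% on average, with arrays that overlap between levels.

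The members differed in how steady they were among arrays of the same level. The SD within levels was 0.225 on the log2 scale for GPR1, 0.187 for GPA2 and 0.176 for RAS1, against 0.139 for the median tested gene. It was 0.0762 for RAS2, 0.0896 for PDE1 and 0.0945 for CYR1, so the receptor and its G protein were the least precisely measured members and RAS2 the most. RAS1 was above its level mean in replicate 1 at 4 of 4 levels, TPK3 in replicate 2 at 4 of 4, and BCY1 in replicate 3 at 4 of 4. These cases were picked as the highest counts over every member and replicate number, and no other member reached 4 of 4. The share of all tested genes that reached it was not counted, so whether these members' spread went with the replicate number was not tested. With the level means taken out, GPR1 and TPK3 followed each other over the 12 arrays with r = 0.94, and TPK2 and BCY1 with r = 0.826. These correlations were picked as the highest of the 36 pairs, and the genes of a pair share array, scaling and replicate number.

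Over the 12 arrays, with the glucose levels left in, the lowest F-test p among the members belonged to TPK3 (unadjusted p = 0.26). The tested genes whose log2 signal followed TPK3 most closely were STU2, which encodes a microtubule-binding protein (r = 0.936), UBP2, a ubiquitin-specific protease gene (r = 0.913), and SRP72, a signal recognition particle subunit gene (r = 0.912). Among the members themselves the highest such value was between TPK2 and BCY1, r = 0.827.

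The other regulators of Ras and kinase A were looked at as a list with 15 genes that had a listed probe set, of which 14 were tested. With limma 0 of 14 passed at 0.25% against 2%. An unadjusted p under 0.05 was found for 3 of 14, TFS1, PDE2 and GPB1, beside 15.8% of all tested genes, and the list median was -0.07 beside -0.015 over all tested genes. CDC25, which encodes the exchange factor that loads Ras with GTP, was at 0.16, and IRA1 and IRA2, the genes of the GTPase-activating proteins, were at -0.09 and -0.17 (adjusted p = 0.67, 0.77 and 0.34). TFS1, an inhibitor of carboxypeptidase Y that also binds Ira2, was at 0.32 (adjusted p = 0.097; 0.042 when the replicate number entered the fit as a block). PDE2, the high-affinity cyclic AMP phosphodiesterase gene, is given because it is the counterpart of PDE1, and was chosen after its values were seen. Its signals were 468, 493 and 399 at 0.25% glucose, 505, 493 and 468 at 0.5%, 664, 503 and 546 at 1%, and 628, 545 and 523 at 2%. The arrays at 0.25% and those at 0.5% lay below all 3 at 2%, and the change at 0.25% was -0.32 (SE 0.11, adjusted p = 0.16; 0.022 with the block). Over the 4 levels its slope was -0.12 for each halving of glucose (adjusted p = 0.086; 0.0075 with the block). Its difference from PDE1 was not tested. GPB1, the gene of a kelch-repeat protein that interacts with Gpa2, had signals of 169, 173 and 183 at 0.25%, 188, 175 and 191 at 0.5%, 163, 173 and 155 at 1%, and 198, 243 and 196 at 2%. Its arrays at each lower level lay below all 3 at 2%, and the change at 0.25% was -0.27 (SE 0.11, unadjusted p = 0.022, limma adjusted p = 0.21). At 0.5% against 2% GPB1 was at -0.19. Its largest change was at 1% against 2%, -0.37 (unadjusted p = 0.0037, limma adjusted p = 0.36). Groups without overlap were found for 19.7%, 21.5% and 10.6% of all tested genes at 0.25%, 0.5% and 1% against 2%. At 0.25% against 1% glucose GPB1 was at 0.10, PDE2 at -0.33 and TFS1 at 0.30, and none passed by limma. With the block 2 of 14 passed, TFS1 and PDE2, beside 10.9% of all tested genes and 0 of the 9 members.

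A list of 19 genes for proteins that kinase A phosphorylates held 12 tested genes, and the other 7 were too dim to be tested. Here 0 of 12 passed by limma at 0.25% against 2%, and 1 had an unadjusted p under 0.05, beside 15.8% of all tested genes. The change was positive in 10 of 12 (median 0.126), beside 45.9% of all tested genes. In a fit with no dim filter, where 4.35% of 5449 genes passed, 2 of the 19 passed, both among the dim genes. They were ADR1 at 1.91 (limma adjusted p = 4.6e-06) and MSN4 at 1.07 (adjusted p = 0.015). YAK1, the gene of a kinase that opposes kinase A in growth control, was the tested gene with an unadjusted p under 0.05. It had signals of 294, 279 and 286 at 0.25% and 191, 253 and 216 at 2%, with no overlap, as for 19.7% of all tested genes. The change was 0.39 (SE 0.13, limma adjusted p = 0.14, and 0.030 with the block). YAK1 was the 1 call among the 12 with the block, beside 10.9% of all tested genes. MSN2, whose transcription factor kinase A keeps in the cytoplasm, was at -0.01 (adjusted p = 0.99).

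Genes with stress elements in their promoters, which kinase A activity is known to hold down through Msn2 and Msn4, were followed in the same comparison. Of 20 such genes 14 were tested and 9 rose at 0.25% against 2% glucose (limma, 0 fell; 2.91% of all tested genes rose). The list median was 0.942 beside -0.015 over all tested genes. The list was chosen with earlier results of these data known, so its counts describe it and are no independent test. Of the tested 14, 7 rose at 0.5% against 2% and 2 at 1% against 2%, where 0.881% and 0.22% of all tested genes rose. With the replicate block 12 of 14 rose at 0.25% (6.41% of all tested genes), TPS1, TPS2 and UBI4 being the added calls, and 10 of 14 at 0.5% (3.38%). HXK1, a hexokinase gene that is also under glucose repression, changed most, by 2.30, followed by DDR2 (2.02), GPH1 (1.81), GLC3 (1.74), GSY1 (1.63) and HSP12 (1.24). The dim cutoff of 111 was set on the mean over all 12 arrays. Mean signals at 2% were below it for DDR2 (67.5), GPH1 (87.4), GLC3 (108) and GSY1 (80.1). These genes were tested only because of their higher signals at lower glucose. HXK1 (528) and HSP12 (205) were above it at 2%. GSY1, a glycogen synthase gene, had signals of 261, 246 and 234 at 0.25%, 142, 169 and 162 at 0.5%, 112, 113 and 115 at 1%, and 75.4, 90.7 and 74.2 at 2%. Each level of GSY1 thus lay wholly above the next higher glucose level. How many of all tested genes did so was not counted. UBI4, the polyubiquitin gene, was the largest change that did not pass, 0.49 (limma adjusted p = 0.18, and 0.031 with the block). At 0.25% against 1% it was at -0.03. Of the other tested genes that did not pass, TPS2 was at 0.45, TPS1 at 0.31, HSP26 at 0.04 and HSP104 at -0.17 (limma adjusted p = 0.056, 0.32, 0.91 and 0.51). Among the dim genes, in a fit with no dim filter, CTT1 was at -0.17, ALD3 at -0.15 and SSA3 at -0.03. There GAC1 was at 1.38, SOL4 at 0.83 and CYC7 at 0.335 (limma adjusted p = 0.42, 0.021 and 0.58). GAC1 had mean signals of only 10.2 at 0.25% and 4.31 at 2%, with an SE of 0.79 for its change. SOL4 alone passed among the dim genes of this list. Many genes of the list answer to other glucose pathways too, and the share of kinase A in their changes was not tested.

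**Figure D4:**
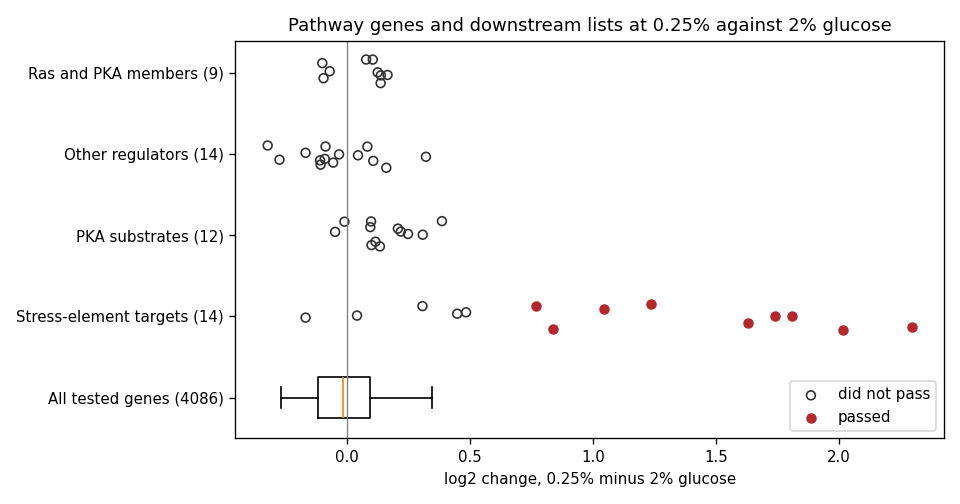
Log2 change at 0.25% against 2% glucose (horizontal) for the 9 members and the tested genes of 3 lists, 1 point a gene, filled where limma's adjusted p was under 0.05. The members and lists were chosen with earlier results of these data known. The box shows quartiles and the whiskers the percentiles 5 and 95 of all 4086 tested genes; the filled points are 9 stress-element targets, at 0.77 and above.

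Comparing 0.25% with 1% glucose does without the 2% arrays, whose 3' to 5' ratio was higher and whose ribosomal RNA signal was lower on average, except in the shared estimate of spread. One array at 2%, replicate 3, had a ribosomal RNA signal of 8.76, above those of 4 arrays at lower levels. There 0 of 9 members passed by limma, where 0.954% of all tested genes passed, and 0 of 9 had an unadjusted p under 0.05, where 6.83% of all tested genes had one. The changes ran from -0.02 to 0.18, and 8 of 14 stress-element targets rose (0.783% of all tested genes rose). The largest of these member values was 0.18, for BCY1.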

How the data were processed

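The deposited table holds array intensities, 1 summarised signal for each of 10928 probe sets on 12 arrays. The authors scaled them to a trimmed mean of 500 on each array, as the values show; the labels do not name the program. Samples were grouped by the glucose level in their titles. Probe sets were named through the platform table's gene IDs and the RefSeq gene table of assembly R64, the brightest was kept per gene (47 genes had several), and log2 was taken of signals raised to at least 1. Genes at or below percentile 25 of mean signal (111) were left out as dim, leaving 4086 of 5449; all 9 members stayed.

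Limma 3.58.1 in R 4.3.3 was fitted to all 12 arrays with a mean per level and an intensity trend, two-sided, adjusted over all tested genes. Within-array differences were tested by exact permutation (numpy 2.4.6). Both were run on simulated data with independent noise on each array. Those data lacked the shared variation of same-numbered arrays described below, so they do not show how the tests behave under it. The number of arrays limits the precision (median SE 0.113). No protein or DNA sequence was used here.

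The rule for named genes was all 9 members, up to 6 genes per list that passed and the largest that did not, and the 3 genes most like the member with the lowest F-test p. CDC25, IRA1, IRA2, PDE2, GPB1, MSN2, TPS1, TPS2, HSP26, HSP104 and the dim genes named were added after their values were seen. The members and lists were chosen with earlier results of these data known. The main limma fit did not pair arrays of the same replicate number in any comparison, and the replicate block was run as an alternative only. Whether same-numbered arrays varied together was judged by whether each pair of deviations had r over 0.1. Of 18 pairs 17 did. All 3 did for 0.25% against 2%, 0.5% against 2% and both steps, and replicate 2 did not for 1% against 2% (-0.027). Each of the 12 arrays correlated best, on average, with the arrays of its own replicate number. Alternatives were other normalizations, offsets, filters, weights and covariates, a replicate block and leaving out each array.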

Additional observations from a re-analysis of the deposited data

How the results depend on the processing

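In the 7 limma tests the count of members called was 0 of those tested (9, or 5 with a dim filter at the median) under every alternative run, including the replicate block and each left-out array. The lowest adjusted p any alternative gave a member was 0.13 (TPK3 at 0.5% against 2%, replicate block). The pair slopes also stayed short of the threshold throughout; with the replicate block that of TPK2 minus TPK3 had an exact permutation adjusted p = 0.088. Among member values whose sign turned, none passed on either side. With the ribosomal RNA covariate they were TPK3 at 0.25% (0.06) and its slope (0.007), BCY1 at 0.25% (-0.014) and 0.5% (-0.097), TPK2 at 0.5% (-0.027), PDE1 at 0.5% (0.027) and the GPA2 slope (-0.011). PDE1 at 0.5% was at 0.038 with quantile normalization, 0.035 with median scaling and 0.039 with array weights, and the GPA2 slope at -0.003 and -0.015 with quantile normalization and array weights. With 1% in place of 2% as the higher level, an alternative added later, TPK3 was at 0.016, PDE1 at 0.017 and UBI4 at -0.029.

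Leaving out single arrays gave from -0.012 to 0.265 for GPR1 and from -0.019 to 0.237 for GPA2 at 0.25% against 2%, and from 0.022 to 0.212 for RAS1, 0.084 to 0.257 for TPK2 and 0.042 to 0.189 for BCY1. At 0.5% against 2% the ranges were -0.011 to 0.161 for TPK2, -0.018 to 0.129 for BCY1 and -0.088 to 0.031 for PDE1. The slope ranges were -0.026 to 0.050 for GPA2, -0.029 to 0.002 for PDE1 and -0.038 to 0.013 for RAS2 minus RAS1. Other regulators called at 0.25% against 2% numbered 1 with quantile normalization (TFS1, adjusted p = 0.044) and 2 with the replicate block. Kinase A substrates numbered 2 with no dim filter, which adds dim genes, and 1 with the replicate block. Stress-element targets numbered 3 with a dim filter at the median, which tests fewer genes, and between 9 and 10 without single arrays. The cause was not tested where no construction is named.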

Other observations

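Several genes of the downstream lists were too dim for the main test and were read from a fit with no dim filter, in which 4.35% of 5449 genes passed at 0.25% against 2% glucose. ADR1, whose activator of ethanol and fatty acid genes kinase A phosphorylates, had a signal of 170 ± 34.8 at 0.25% and 45.0 ± 7.75 at 2% (SD, n = 3 each; change 1.91, limma adjusted p = 4.6e-06). MSN4, the gene of the stress transcription factor paired with Msn2, had 89.1 ± 16 at 0.25% and 43.9 ± 14.4 at 2% (change 1.07, adjusted p = 0.015). SOL4, a stress-element target, had 68.4 ± 10.9 at 0.25% and 39.1 ± 10.1 at 2% (adjusted p = 0.021). CTT1, cytosolic catalase, was at -0.17 and SSA3, a heat shock protein gene, at -0.03 (adjusted p = 0.80 and 0.95), and RIM15, the kinase gene that acts below kinase A on entry into quiescence, at 0.23 (adjusted p = 0.55). RGS2, the gene of a protein that switches Gpa2 off, had 33.3 ± 12.4 at 0.25% and 50.1 ± 7.47 at 2% (adjusted p = 0.21).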
